A study of Rattus norvegicus with 24 samples.

Results

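The genes described here lie on rat chromosome 20, in the stretch that holds the RT1 complex, the major histocompatibility complex of the rat, and its flanks. Members were the genes whose smallest start lay before position 8000000 of chromosome 20 in Rnor_5.0, the genome build of the files, and that had a CPM (reads of the gene scaled to a common library total) above 1 in at least 4 of the 24 pups. Of 292 genes listed in this region, 205 had a count in at least 1 pup and 120 passed the CPM limit. These 120 were among 14348 genes of 26404 that passed the limit in the whole genome. A symbol was in hand for 10 of the 120, and the other members are given by their Ensembl identifiers.

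The 24 libraries were made from poly-A RNA (integrity number above 9.5) of the right cerebral cortex, each of a Sprague Dawley pup taken on postnatal day 0 after a vaginal birth. The saline pump group held 12 pups of 3 dams that had a saline-filled infusion pump implanted under isoflurane anesthesia on embryonic day 18, with opioid analgesia around surgery. The spontaneous labor group held 12 pups of 3 unhandled dams. Each litter gave 2 male and 2 female pups, and the litter was read from the identifier that came with each pup's deposited counts. Implanted dams of the study also received antibiotics, by injection or later in the drinking water, and which regimen these 3 dams had is not given in the sources used here. Surgery, anesthesia, analgesia, antibiotics and the pump came together, so that their parts in any difference cannot be told apart. The dam was assigned to a condition and the litter was therefore the unit of that comparison.

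The major histocompatibility complex encodes the proteins that show peptides to T cells. Class I molecules sit on nearly all nucleated cells and present peptides from inside the cell, whereas class II molecules are carried mainly by antigen-presenting cells, which in the brain are microglia and macrophages. Between and around these genes lie the class III genes, which hold cytokine, complement and many housekeeping genes, and the framework genes, which are not related to antigen presentation and keep the same order in many mammals. In the developing cortex, class I molecules are also found on neurons, where they are known for roles in synapse refinement. In the rat, class I genes lie at both ends of the complex, and their number and sequence differ between strains.

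Promoters of the named members were read from RefSeq (build GRCr8, 250 bases before to 50 bases after the annotated start) because class I and class II promoters share known regulatory boxes. Of the 10 named members, 8 had an entry there, among them RT1-N3, Wdr46, Ppp1r18 and Lsm2. The letters searched on both strands were GATTGG, the reverse of a CCAAT box and the core of the Y box of class II promoters, and GAAANNGAA, the core of an interferon-stimulated response element. Of the 4 promoters below, that of RT1-N3 is shown because it is the class I gene with a symbol. Ppp1r18 and Lsm2 are shown because the pups of 1 litter lay apart from all others. Lsm2 and Wdr46 had litter means that did not overlap between conditions, for Wdr46 by a narrow margin (54.8 against 55.4 CPM). Each runs 5′ to 3′ on the strand of the gene, and capitals mark the matches.
RT1-N3: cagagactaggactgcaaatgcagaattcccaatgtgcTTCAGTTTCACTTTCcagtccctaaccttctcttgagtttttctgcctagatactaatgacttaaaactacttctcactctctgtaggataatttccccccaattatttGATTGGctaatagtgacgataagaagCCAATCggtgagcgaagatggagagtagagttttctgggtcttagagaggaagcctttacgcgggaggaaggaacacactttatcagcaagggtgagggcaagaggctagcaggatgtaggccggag
Wdr46: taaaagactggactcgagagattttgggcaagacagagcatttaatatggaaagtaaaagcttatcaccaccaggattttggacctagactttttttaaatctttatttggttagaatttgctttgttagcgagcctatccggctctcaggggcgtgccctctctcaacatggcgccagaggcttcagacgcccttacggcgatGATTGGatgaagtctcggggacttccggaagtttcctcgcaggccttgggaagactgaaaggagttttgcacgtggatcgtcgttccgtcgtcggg
Ppp1r18: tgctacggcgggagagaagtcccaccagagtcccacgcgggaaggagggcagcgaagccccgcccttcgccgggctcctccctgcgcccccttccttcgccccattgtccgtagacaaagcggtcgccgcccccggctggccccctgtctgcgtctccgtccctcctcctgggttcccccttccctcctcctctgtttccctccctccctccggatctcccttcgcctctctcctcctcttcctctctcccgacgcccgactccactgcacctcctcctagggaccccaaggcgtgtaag
Lsm2: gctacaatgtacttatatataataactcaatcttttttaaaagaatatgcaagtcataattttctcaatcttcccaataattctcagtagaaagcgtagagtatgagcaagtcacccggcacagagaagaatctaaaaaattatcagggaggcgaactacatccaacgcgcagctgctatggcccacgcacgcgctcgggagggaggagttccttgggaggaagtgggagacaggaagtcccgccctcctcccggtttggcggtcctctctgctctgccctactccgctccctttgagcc
These windows lie at chr20:2666239-2666538 on the plus strand for RT1-N3, and on the minus strand at chr20:4947453-4947752 for Wdr46, chr20:2892280-2892579 for Ppp1r18 and chr20:3851821-3852120 for the first of the entries of Lsm2. The RT1-N3 window held GATTGG on both strands, 103 and 77 bases before the start, and GAAANNGAA at 212 and 206 bases before the start, where the matches overlap. It was the only one of the 8 named members with an interferon-type match. GATTGG was also found in Apom and, 46 bases before the start, in Wdr46. Over all 33469 RefSeq promoters, GATTGG occurred in 14.8% and GAAANNGAA in 9.71%, and both in 1.11%. Among the 42 promoters of genes with an RT1 symbol, 25 (59.5%) held GATTGG and 3 (7.14%) held GAAANNGAA. A match describes letters only.

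The region was sparse in members at its start and dense at its end. In the first Mb, 3 of 41 listed genes were members, in the second 0 of 20, and the third had no listed gene. Between the members that start at 289420 and 3856748, a gap of 3.57 Mb, 73 genes were listed, of which 10 had a count in any pup, and the highest mean there was 0.0608 CPM. The share of listed genes that were members was 6.90% from 3 to 4 Mb, 28.1% from 4 to 5 Mb, 58.5% from 5 to 6 Mb, 60.7% from 6 to 7 Mb and 67.2% from 7 to 8 Mb. Only reads with a single unambiguous alignment were counted, so that reads shared by near-identical class I genes are missing from these counts. Of the 120 members, 101 had more than 1 CPM in all 24 pups and 6 did in 4 to 11 pups.

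One gene carried a large part of the signal. ENSRNOG00000000821 (chromosome 20, 5519551 to 5523476, plus strand) had a mean of 5840 CPM and took 41.0% of all counts on members, and the 5 most counted members together took 61.5%. Per length it stood at 2690 RPKM (CPM per kilobase of gene), followed by ENSRNOG00000000841 and ENSRNOG00000000774 at 272 RPKM each. The median member stood at 12.3 RPKM, next to 11.6 RPKM over all genes that passed the limit and 10.5 RPKM over the 289 of the rest of chromosome 20. Of the named members, 5 lay above the member median and 5 below it. Lsm2 had 33.0 RPKM, Mrps18b 26.5, Wdr46 24.3, Nfkbil1 21.9 and Ppp1r18 16.5. The class I gene RT1-N3 had 3.11 RPKM and was the 89th of 120 in rank, and Ier3 (5.65), B3galt4 (5.19), Gpsm3 (3.43) and Apom (2.30) were at a like level. Differences between neighbours in this order, such as Mrps18b and Wdr46, were not tested.

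**Figure D1:**
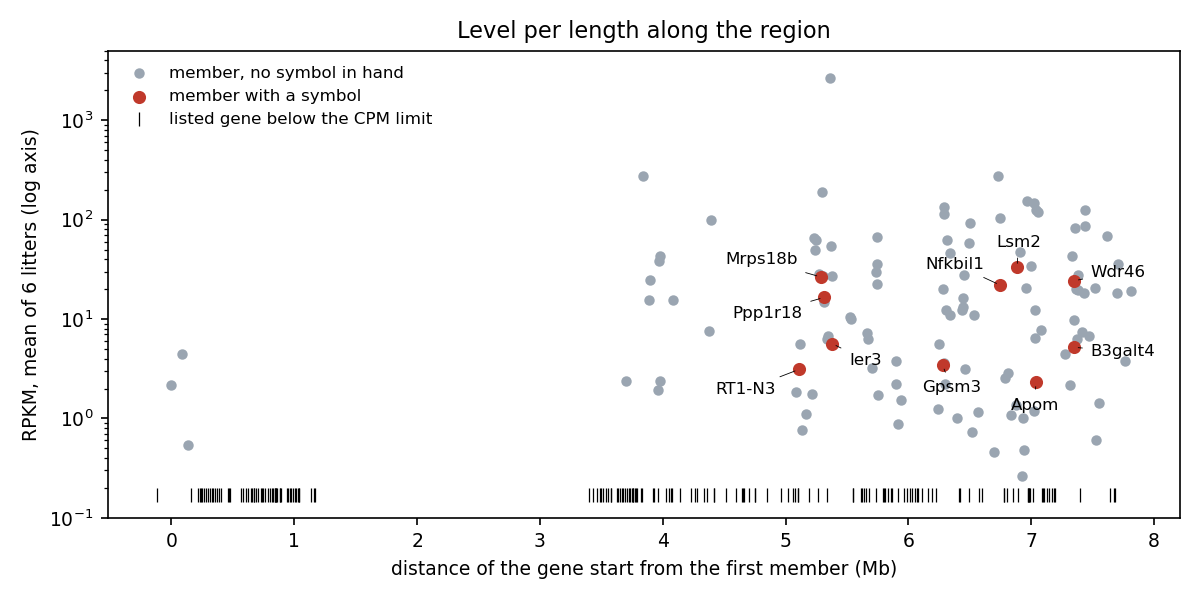
Level of each member per length (RPKM, mean of 6 litters, log axis) against the distance of its start from the first member in Mb, with the 10 named members in red and a tick for each listed gene below the CPM limit. Most members lie in the last part of the region, a single gene stands at 2690 RPKM, and RT1-N3 is at 3.11 RPKM.

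At the limits of the rule, ENSRNOG00000000728 (4 pups over 1 CPM, mean 0.647 CPM) was just inside and ENSRNOG00000000843 (3 pups, mean 0.651 CPM) just outside. The last member, ENSRNOG00000000513, starts at 7968539 with a mean of 66.8 CPM, and the next gene, at 8063831, had 22.2 CPM. Of the members, 17 overlap another counted gene, 13 of them one on the opposite strand. Whether counting used the strand is not given in the sources used here, and the reads of such genes may not be separable. The order of the named members also depends on the build. Gpsm3, Nfkbil1, Lsm2 and Apom follow each other in this order in the files, and as Nfkbil1, Apom, Lsm2 and Gpsm3 in GRCr8, while the other 6 keep their places. Gpsm3, Lsm2 and Apom are also on opposite strands in the builds, so that distances between members hold for Rnor_5.0.

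Between 12170547 and 19260066 reads were counted per pup in the saline pump group (median 14188104) and between 14053860 and 17281461 in the spontaneous labor group (median 15005624.5). No pair of libraries agreed within counting noise (lowest chi-square per degree of freedom 2.50). Members took 1.376% to 1.476% of these counts in the saline pump group (median 1.4335%) and 1.344% to 1.539% in the spontaneous labor group (median 1.4045%), and the ranges overlapped. Without ENSRNOG00000000821 the medians were 0.839% and 0.842%. The 4 pups of spontaneous labor litter 1 stood apart from all others on the first principal component of all genes (14.7% of the variance), between -23.6 and -19.3 where the other 20 pups lay between -11.3 and 20.1. Saline pump litter 3 held a female pup that stood apart on the second component (12.2%), at -36.8. Where the former litter moved a named difference by over 1.5 times, the value without it is given too.

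The first comparison asked whether surgery and anesthesia in the dam changed the region in the newborn cortex. None of the 120 members differed between conditions at an adjusted p of at most 0.05 (edgeR's quasi-likelihood test on litter sums with Benjamini-Hochberg adjustment over all genes), and neither did any of the 14348 genes (0%). At an unadjusted p under 0.05 there was 1 member (0.833%), against 1.67% of all genes. DESeq2 on litter sums and limma with the litter as a random block also called 0 members. The median log2 fold change (spontaneous labor minus saline pump) was 0.011 over members and 0.000 over all genes, with 67 members higher and 53 lower. The median 95% interval reached 0.219 on the log2 scale to either side of the estimate, without adjustment for the number of genes. With 3 litters per condition, passing the adjusted test takes a larger difference than this for most members. In these bulk samples, fewer cells of a type and less RNA per cell cannot be told apart.

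RT1-N3 (ENSRNOG00000000795, 5265245 to 5269111, plus strand) encodes a class I molecule and in GRCr8 lies between RT1-O1 and RT1-S3. Its level was 4.52, 5.80 and 7.93 CPM (lowest, median and highest pup) in the saline pump group and 3.86, 4.90 and 8.19 CPM in the spontaneous labor group. The groups overlapped over most of their range. The litter means were 5.96 ± 0.604 CPM (SD, n = 3 litters) and 5.31 ± 0.751 CPM (SD, n = 3). The log2 fold change was -0.17 (95% interval -0.47 to 0.13, adjusted p = 0.99992). It was the only one of 66 class I symbols sought that was in hand, and none of 11 class II and 6 antigen-processing symbols of the region was, so that those genes, if among the members, are counted without a name.

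Of the named class III genes, Gpsm3 and Lsm2 had the largest differences, both lower in spontaneous labor. Gpsm3 (ENSRNOG00000000441, 6434602 to 6436463, plus strand) modulates G protein signaling in white blood cells. It ranged from 3.37 to 7.10 CPM (median 4.35) in the saline pump group and from 2.63 to 5.14 CPM (median 3.65) in the spontaneous labor group, with a log2 fold change of -0.30 (95% interval -0.65 to 0.05, adjusted p = 0.99992). Lsm2 (ENSRNOG00000048725, 7040457 to 7043830, plus strand) is part of the ring of Lsm proteins that binds U6 RNA and decaying mRNA. Its pups lay between 22.6 and 29.7 CPM (median 25.9) and between 18.9 and 27.8 CPM (median 23.0). The litter means of Lsm2 did not overlap, at 26.3, 25.5 and 26.6 CPM in saline pump litters 1, 2 and 3 and 19.5, 25.0 and 23.0 CPM in spontaneous labor litters 1, 2 and 3, with a log2 fold change of -0.22 (95% interval -0.43 to 0.00, adjusted p = 0.99992).

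Nfkbil1 and Apom, also class III genes, had smaller differences. Nfkbil1 (ENSRNOG00000000839, 6904626 to 6919601, plus strand), a nuclear protein related to inhibitors of NF-kappa B, had litter means of 35.7, 33.6 and 29.8 CPM in saline pump and 27.1, 31.7 and 33.4 CPM in spontaneous labor. They overlapped, with a log2 fold change of -0.10 (95% interval -0.33 to 0.13, adjusted p = 0.99992). Apom (ENSRNOG00000000850, 7193732 to 7196332, minus strand), an apolipoprotein that carries sphingosine-1-phosphate, had pups from 1.23 to 2.28 CPM and from 0.99 to 2.06 CPM, which overlapped, and differed by -0.20 (95% interval -0.58 to 0.18, adjusted p = 0.99992). For all 4 named class III genes, spontaneous labor litter 1 had the lowest mean of the 6 litters. It did so for 39 of the 120 members (32.5%) and for 23.0% of all genes, and had the highest mean for 34 members (28.3%) and 28.8% of all genes. Without that litter, the log2 fold change was -0.17 for Gpsm3, -0.12 for Lsm2, -0.02 for Nfkbil1 and -0.06 for Apom.

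The framework genes differed in both directions, and none passed the test. Ppp1r18 (ENSRNOG00000000816, 5469936 to 5494142, minus strand), an actin-binding regulatory subunit of protein phosphatase 1, had litter means of 38.3, 37.0 and 45.9 CPM in saline pump and 54.2, 42.8 and 42.4 CPM in spontaneous labor. The second group was higher by 0.20 on the log2 scale (SE 0.106, 95% interval -0.04 to 0.43, adjusted p = 0.99992), and by 0.08 without spontaneous labor litter 1. It overlaps another counted gene on the same strand. Mrps18b (ENSRNOG00000000804, 5442393 to 5448452, plus strand), a protein of the mitochondrial ribosome, differed by -0.08 (95% interval -0.23 to 0.07, adjusted p = 0.99992). Ier3 (ENSRNOG00000000827, 5535617 to 5536820, minus strand), an early response gene, differed by -0.11 (95% interval -0.41 to 0.19, adjusted p = 0.99992), or by -0.19 without spontaneous labor litter 1, and overlaps a gene on the opposite strand. On the far flank, B3galt4 (ENSRNOG00000000471, 7504745 to 7506286, plus strand), a galactosyltransferase of ganglioside synthesis, differed by -0.10 and its neighbour Wdr46 (ENSRNOG00000031171, 7506474 to 7514244, minus strand), a nucleolar protein of ribosome assembly, by 0.11 (adjusted p = 0.99992 for both).

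The litter means of Wdr46 did not overlap either, at 54.7, 48.1 and 54.8 CPM in the saline pump litters and 58.6, 56.8 and 55.4 CPM in the spontaneous labor litters. Over the region, all 3 spontaneous labor litters were higher than all 3 saline pump litters for 8 members (6.67%), against 2.91% of all genes, and lower for 1 member, Lsm2 (0.833%), against 3.25%. Among members without a symbol, those with the smallest p were ENSRNOG00000000840 (log2 fold change 0.13, unadjusted p = 0.0484), ENSRNOG00000000459 (0.23) and ENSRNOG00000039744 (0.28) of those higher in spontaneous labor, and ENSRNOG00000000809 (-0.12), ENSRNOG00000000479 (-0.18) and ENSRNOG00000000857 (-0.32) of those lower, all with adjusted p = 0.99992. Without spontaneous labor litter 1 these 6 differences were 0.09, 0.34, 0.41, -0.06, -0.07 and -0.15. ENSRNOG00000000840 had 148, 144 and 146 CPM in the saline pump litters and 171, 158 and 152 CPM in the spontaneous labor litters. The names in hand came from the study's tables of genes ordered by their difference between conditions in female pups, so that the 10 named members were chosen by a difference between these samples and are not independent evidence of its direction. Of the 10, 8 were lower and 2 higher in spontaneous labor.

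**Figure D2:**
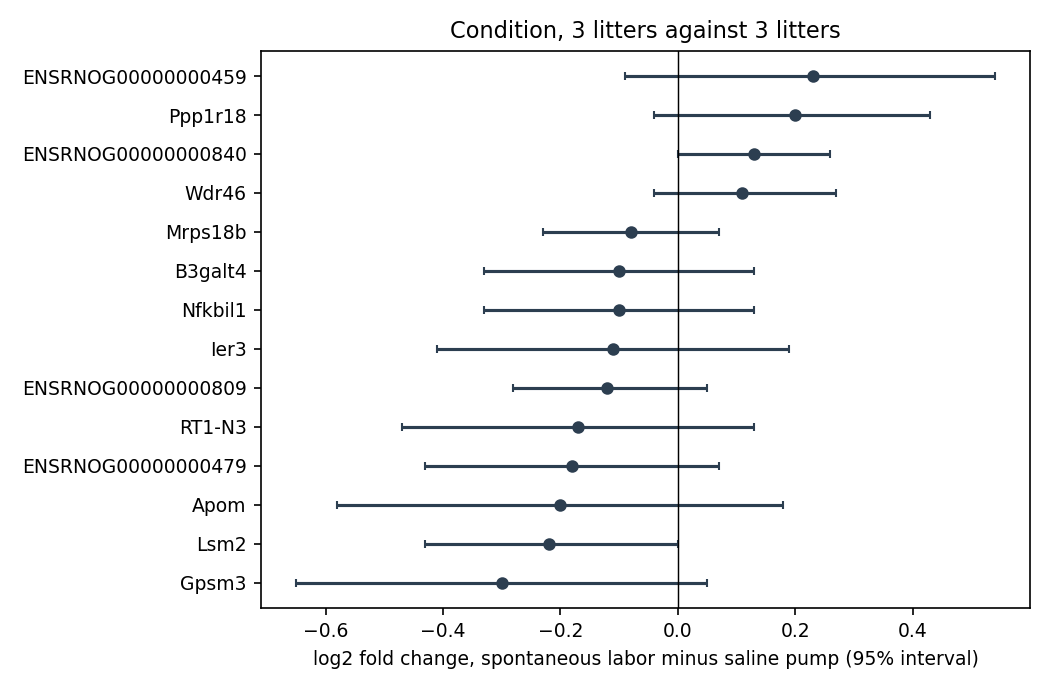
Log2 fold change (spontaneous labor minus saline pump, points) with its 95% interval (bars) for the 10 named members and the 2 members without a symbol of smallest p in each direction, from the test with 3 litters per condition. The estimates lie between -0.30 and 0.23, and the intervals cross 0 or, for ENSRNOG00000000840, begin at 0.00.

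Litters of the same condition differed for many members. Of the 120 members, 42 (35.0%) differed among the 3 litters of a condition at an adjusted p of at most 0.05 (edgeR's quasi-likelihood F test over 24 pups), close to 33.7% of all genes. Without spontaneous labor litter 1 it was 22 of 120, against 15.3% of all genes. Of the named members, Nfkbil1 (adjusted p = 0.000281), Ppp1r18 (0.00154) and Lsm2 (0.00448) were among the 42. Without spontaneous labor litter 1 the adjusted p was 0.0256 for Nfkbil1, 0.0766 for Ppp1r18 and 0.484 for Lsm2. RT1-N3 had litter means between 4.72 and 6.37 CPM (adjusted p = 0.196). The most counted member, ENSRNOG00000000821, had 6110, 5900 and 5780 CPM in the saline pump litters and 5300, 6290 and 5660 CPM in the spontaneous labor litters (adjusted p = 0.000432, and 0.0332 without spontaneous labor litter 1).

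Several further members with a small p among litters had their extremes in saline pump litter 3 and spontaneous labor litter 1. These litters also stood apart for the most genes over the whole genome. All 4 pups of saline pump litter 3 lay above the other 20 for 1.17% of all genes and below them for 0.551%. For spontaneous labor litter 1 the shares were 3.00% and 1.48%, and in the other litters they were at most 0.181%. ENSRNOG00000000511 (7867103 to 7900809, minus strand) had 64.8, 66.4 and 76.4 CPM in the saline pump litters and 78.1, 66.1 and 67.5 CPM in the spontaneous labor litters (adjusted p = 0.000364), so that the highest litters were saline pump litter 3 and spontaneous labor litter 1. ENSRNOG00000000812 (5462332 to 5466442, plus strand) had the same highest litters, at 35.8 and 36.7 CPM against 29.5 to 30.8 CPM in the rest (adjusted p = 0.000859). ENSRNOG00000000842 (7122435 to 7125498, plus strand), one of the 6 members of highest level per length (154 RPKM), had these 2 litters as its lowest, at 182 and 174 CPM against 206 to 228 CPM (adjusted p = 0.000863). They were also the lowest for ENSRNOG00000029682 (7113249 to 7122091, plus strand), at 20.6 and 22.3 CPM against 24.4 to 27.0 CPM (adjusted p = 0.000427). ENSRNOG00000030630 (6656521 to 6672961, plus strand) had these litters at opposite ends, with 326 CPM in saline pump litter 3 and 402 CPM in spontaneous labor litter 1 (adjusted p = 0.000382). ENSRNOG00000000803 (5428220 to 5441580, minus strand) had 91.1, 83.1 and 90.8 CPM and then 71.4, 77.6 and 95.7 CPM, the widest span being among the spontaneous labor litters (adjusted p = 0.000482). By position, 1 of 3 members was among the 42 in the first Mb, 0 of 2 from 3 to 4 Mb, 4 of 9 from 4 to 5 Mb, 10 of 31 from 5 to 6 Mb, 10 of 34 from 6 to 7 Mb and 17 of 41 from 7 to 8 Mb.

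Spontaneous labor litter 1 held members that parted from all other pups. All 4 of its pups lay below the other 20 pups for 4 members (3.33%, against 1.48% of all genes) and above them for 3 members (2.50%, against 3.00%). ENSRNOG00000000442 (6409150 to 6433141, plus strand) had 23.7 and 22.1 CPM in the male and 24.3 CPM in each of the female pups of this litter. The other 20 pups had from 32.7 to 45.9 CPM (median 38.0). ENSRNOG00000000433 (6471982 to 6475627, plus strand) had 75.9 and 80.5 CPM in the male and 72.8 and 93.9 CPM in the female pups, and from 109 to 146 CPM (median 134) in the other 20. Neither gene overlapped between this litter and the rest, in males or in females. The mean of the litter relative to the mean of the other 5 litters was -0.72 for the first and -0.69 for the second on the log2 scale, and the adjusted p among litters was 2.87e-06 and 7.35e-06. With this litter left out, the adjusted p was 0.168 and 0.292.

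Both genes lie near Gpsm3, at the ends of a run of 9 consecutive members within 66.5 kb of Rnor_5.0. Gpsm3 itself had a ratio of -0.53 in this litter (2.63 to 3.30 CPM, and 2.63 to 7.10 CPM in the other 20 pups). Its next neighbour, ENSRNOG00000000440, was higher there by 0.18, with 62.1 to 63.9 CPM where the other 20 pups had from 49.2 to 61.5 CPM. The 5 members between it and ENSRNOG00000000433 had ratios of -0.13, 0.01, -0.07, 0.47 and 0.27, and the third and the fourth of these overlap each other on opposite strands. The run thus held members on both sides of the other litters, and the low values were not shared by all of it. Further along, Lsm2 (18.9 to 20.5 CPM, against 21.7 to 29.7) and ENSRNOG00000000476 (58.9 to 64.0 CPM, against 65.3 to 88.9) were lower without overlap. Ppp1r18 (51.2 to 56.8 CPM, against 30.7 to 49.7) and ENSRNOG00000000833 (46.9 to 56.0 CPM, against 34.6 to 46.8) were higher without overlap. Across the region, the ratio lay between -0.72 and 0.47, and it was beyond 0.5 in size for 7 members (5.83%), all lower, next to 4.17% of all genes in either direction.

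**Figure D3:**
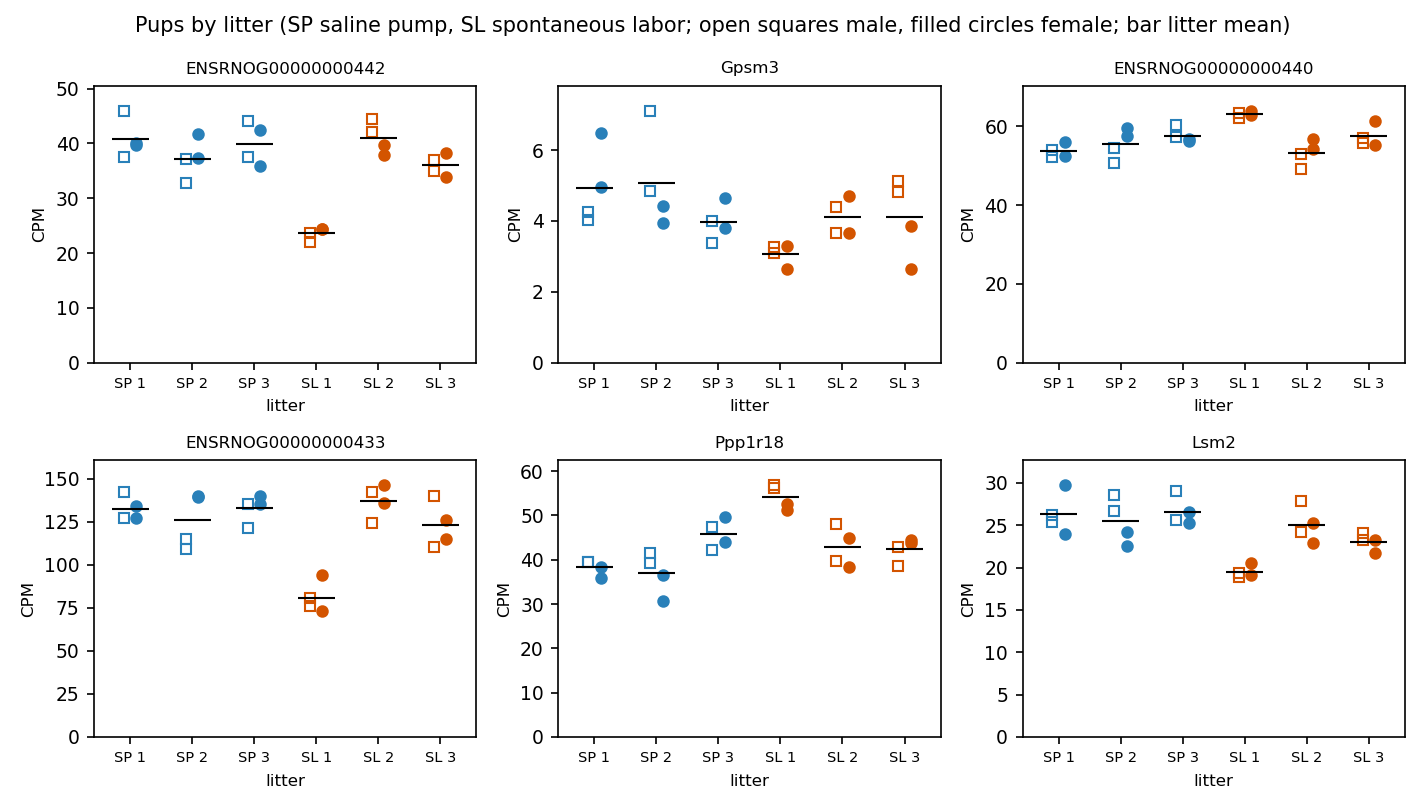
CPM of each pup (open squares male, filled circles female, bars litter means) in the 6 litters for 6 members, with saline pump (SP) litters in blue and spontaneous labor (SL) litters in orange. The 4 pups of SL litter 1 lie below the other 20 for ENSRNOG00000000442, ENSRNOG00000000433 and Lsm2 and above them for ENSRNOG00000000440 and Ppp1r18, and overlap with them for Gpsm3.

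**Figure D4:**
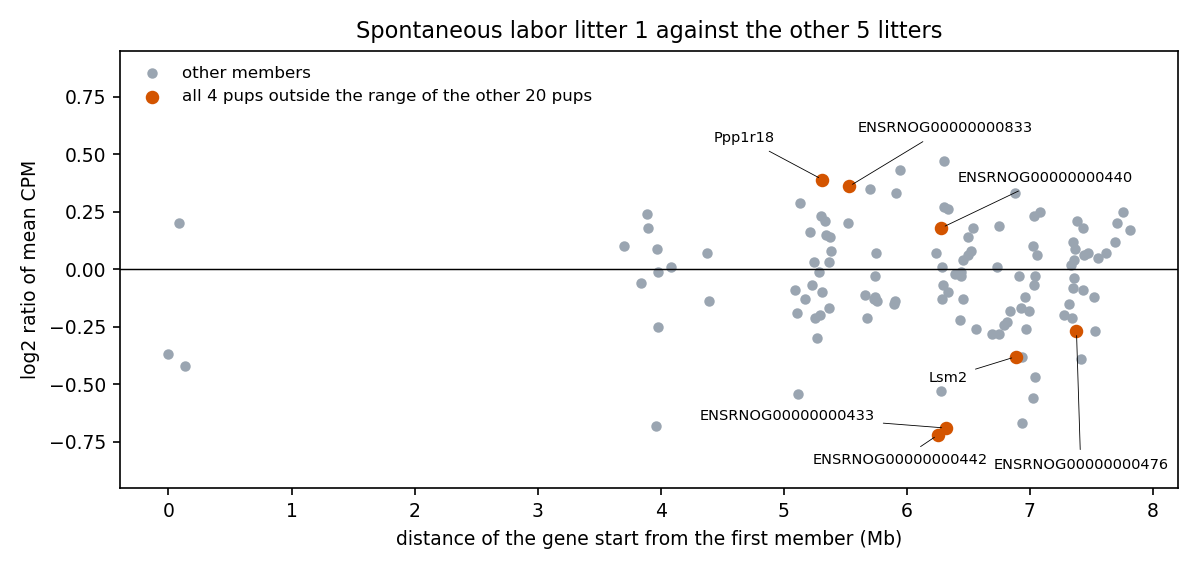
Log2 ratio of the mean CPM of spontaneous labor litter 1 to the mean of the other 5 litters for each member, against the distance of its start from the first member in Mb. Orange points are the 7 members whose 4 pups all lie outside the range of the other 20 pups, 4 of them lower and 3 higher.

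Other genes moved with this litter. Of the 10 cell type markers with a symbol in hand, 9 (all but Alas2) had their lowest litter mean there, next to 23.0% of all genes, and for 2 of them all 4 pups lay below the other 20, next to 1.48% of all genes. These markers were in hand through tables ordered by the difference between conditions and are no independent sample of their cell types. C1qc, a complement gene of microglia, had 16.5 to 18.6 CPM in this litter and 22.4 to 35.4 CPM in the other pups. Vim, a marker of radial glia, had 362 to 404 CPM and 476 to 592 CPM. The other 8 (S100a8, S100a9, Cldn5, Abcc9, Hba-a3, Alas2, Ahsp and Slc4a1) overlapped between this litter and the rest. Nfya, a subunit of the factor that binds the CCAAT box, was higher in this litter, with 44.6 to 51.9 CPM against 24.5 to 33.5 CPM. The depth of the 4 pups was 14053860 to 15155381 counts. The part of these markers in the values of the members was not tested. Only 1 other litter had a member of this kind, namely saline pump litter 3, in which ENSRNOG00000000853 had 3.81 to 5.32 CPM against 5.37 to 9.68 CPM (1 of 120 members, 0.833%, against 0.551% of all genes).

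A few members had a wide spread between littermates. The SD of log2 CPM between the pups of a litter had a median of 0.130 over members and 0.135 over all genes. It was highest for ENSRNOG00000000728 (0.840), ENSRNOG00000029386 (0.702), ENSRNOG00000000454 (0.692), ENSRNOG00000027516 (0.634) and ENSRNOG00000000723 (0.630). The first and the fourth had means of 0.647 and 0.704 CPM, where counting noise is large. Counts within litters spread beyond counting noise, with a median chi-square per degree of freedom of 2.62 over members and over all genes alike, and a value over 3 in 40.0% of members and 43.6% of all genes.

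In spontaneous labor litter 1 the male and the female pups parted for a pair of these genes, which were picked for their wide spread. ENSRNOG00000029386 (5245094 to 5248485, plus strand), which lies next to RT1-N3 in Rnor_5.0 among the members, had 1.17 and 0.427 CPM in the males and 4.02 and 4.20 CPM in the females. ENSRNOG00000000723 (6968850 to 6973135, minus strand) had 0.826 and 2.49 CPM in the males and 7.19 and 5.62 CPM in the females. The males were the lowest pups of the study for ENSRNOG00000000723 and for ENSRNOG00000029386. In the other 5 litters the sexes overlapped or differed by less, with 1.36 to 4.10 CPM for ENSRNOG00000029386 and 2.94 to 6.97 CPM for ENSRNOG00000000723. Over all litters the difference between sexes (female minus male) was 0.29 (adjusted p = 0.692) and 0.32 (adjusted p = 0.589) on the log2 scale. The sexes of spontaneous labor litter 1 also parted for other members. RT1-N3 had 3.86 and 4.13 CPM in its males and 5.94 and 6.26 CPM in its females. ENSRNOG00000038999 had 1.72 and 1.99 CPM, and 4.42 and 4.41 CPM. ENSRNOG00000000473 went the other way, with 60.2 and 54.7 CPM in the males and 42.0 and 39.8 CPM in the females. ENSRNOG00000000454 (6099931 to 6105533, plus strand) had 3.53 CPM in a female pup of saline pump litter 1 and 4.73 CPM in a male pup of saline pump litter 2, and 1.85 CPM or less in the other 22 pups.

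**Figure D5:**
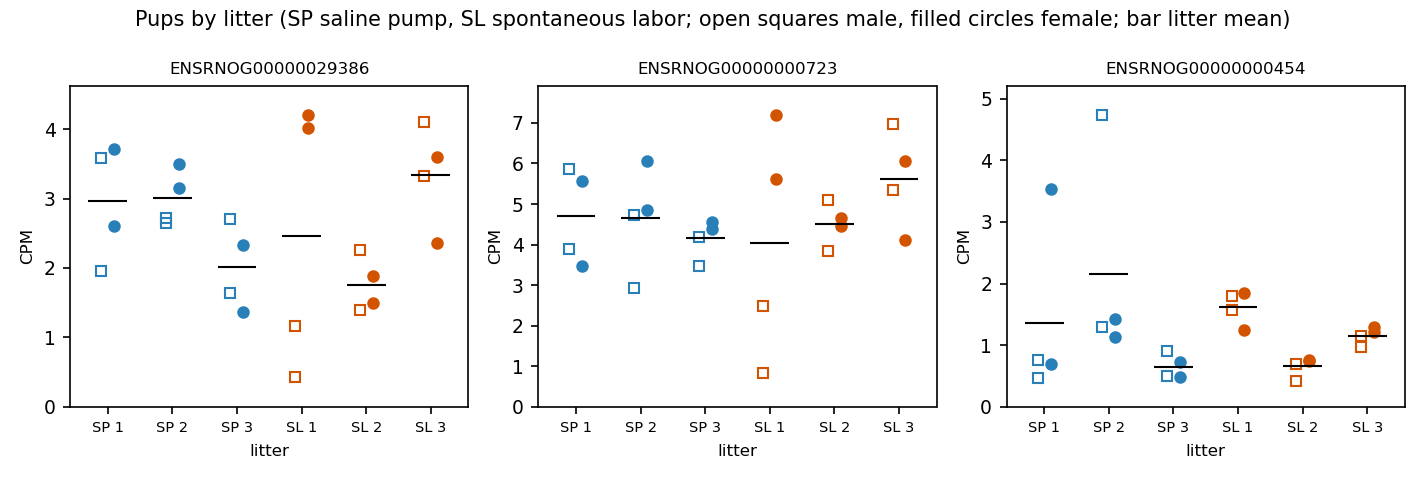
CPM of each pup (open squares male, filled circles female, bars litter means) in the 6 litters for 3 members with a large spread between littermates, with saline pump (SP) litters in blue and spontaneous labor (SL) litters in orange. In SL litter 1 the males and females part for ENSRNOG00000029386 and ENSRNOG00000000723, and 2 saline pump pups stand above the rest for ENSRNOG00000000454.

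No difference by sex passed the test in the region. None of the 120 members differed between female and male pups at an adjusted p of at most 0.05, and 7 of 14348 genes did (0.0488%; edgeR's quasi-likelihood test with the litter as a block). At an unadjusted p under 0.05 there were 8 members (6.67%), against 9.49% of all genes. The smallest was that of ENSRNOG00000000803, which was lower in females by a log2 fold change of -0.15 (adjusted p = 0.301). For the interaction of condition and sex there were 0 members and 0 genes (0%) at an adjusted p of at most 0.05, and 2 members (1.67%) at an unadjusted p under 0.05, against 3.73% of all genes. These 2 were ENSRNOG00000000812 (interaction -0.17) and Ier3 (interaction -0.43, adjusted p = 0.99876 for both). Ier3 had a log2 fold change between conditions of -0.32 with female pups alone and 0.11 with male pups alone. Its symbol came from tables ordered by the difference in female pups, so that the value in females is not independent of that choice.

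Outside the region, 3 of 24 symbols of antigen presentation and 2 of 29 of the interferon response were in hand. Of the former, Erap1, which trims peptides for class I molecules, had a log2 fold change of 0.23 (12.3 ± 0.596 CPM and 14.5 ± 1.77 CPM, SD, n = 3 litters each), Nfya of 0.36 and Calr, a chaperone of class I assembly, of -0.15. Of the latter, Ifnar2, a receptor chain for type I interferon, differed by 0.05 and Socs1, an inhibitor of cytokine signaling, by -0.23. None of the 5 passed the test (adjusted p = 0.99992 for each). Without spontaneous labor litter 1 the differences were 0.30 for Erap1, 0.10 for Nfya, -0.08 for Calr, 0.09 for Ifnar2 and -0.03 for Socs1. The names of these genes came from the same tables ordered by condition. B2m, Cd74, Nlrc5 and Ciita had no symbol in hand and were not analysed here. Of the cortical markers only Vim was in hand, and the tissue was therefore not checked against its defining markers. The median log2 fold change of the matched markers was -0.22 for microglia (1 gene), -0.63 for granulocytes (2), -0.12 for endothelial and mural cells (2) and -0.49 for red cells (4), with 0 passing the test, and that of Vim was -0.11. Without spontaneous labor litter 1 these medians were -0.03, -0.36, -0.05 and -0.35, and Vim was at 0.02. None of the 13 meningeal and choroid plexus and 17 other brain region symbols was in hand. Of the list for the far flank of the region, 5 of the 7 genes in hand start beyond it, and the largest difference among them was that of Pnpla1 (-1.36, adjusted p = 0.99992), which was at 7.29 CPM in saline pump litter 2 and from 0.901 to 2.98 CPM in the other 5.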

How the data were processed

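RNA-seq of 24 pups was analysed. Per the labels and the methods, the authors aligned reads to Rnor_5.0 with STAR 2.0.4b and used featureCounts to count, for each Ensembl gene, reads with 1 alignment that fell in no other gene. The authors deposited these counts without normalization, with CPM (counts scaled to the library total) and RPKM (CPM per kilobase of gene length), which entered no test. Counts were summed over the 4 pups of a litter, scaled by TMM and tested as spontaneous labor minus saline pump with edgeR 4.0.16 in R 4.3.3, with Benjamini-Hochberg adjustment over 14348 genes. The study used limma over pups with surrogate variables, run here (5 variables) as an alternative with limma 3.58.1 and sva 3.50.0. Litters of a condition, sex and its interaction with condition were tested over 24 pups. DESeq2 1.42.0, RLE scaling, other filters, single sexes and leaving out each litter were further alternatives. Log2 CPM carry a prior count of 0.5. The condition fit was run on simulated counts with 200 changed genes and the same litter SD (0.0739, log2) for every gene. It found 96% of the genes changed by 0.58 (log2) and also called 17 unchanged genes. Real members differ in their litter spread, and the share found for those with a wider one was not simulated. Symbols came from the study's supplementary tables (967 genes, in part), and matched 30 of 415 symbols on the lists used. Genes were chosen for naming by a rule: members called in a test, those of smallest p by condition in each direction and among litters, those of highest level or widest littermate spread, those at the limits, and list genes with a symbol. The 42 members called among litters are summarised, with examples. Members and lists were chosen with earlier results of these data known. Pups of a litter share a dam, so p-values over pups measure the spread between littermates. Library totals of 12170547 counts or more set the counting precision, and 3 litters per condition that of the comparison.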

Additional observations from a re-analysis of the deposited data

Results flagged for a closer look

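Within the 4 groups of 6 pups formed by condition and sex, the lowest or highest pup stood far from the others in 5 of 116 groups examined (28 members and the members' share of counts), and chance would give about 1 in 20. The 28 were picked in part for a wide littermate spread or for litters that parted, so that this count is no fair test against chance. In the saline pump males, ENSRNOG00000000459 had a log2 CPM of 1.09 in a pup of litter 2, with the nearest pup at 1.56. The same pup had -2.49 (0.143 CPM) for ENSRNOG00000027516, with the nearest at -0.85. That gene was picked for its littermate spread and lies where counting noise is large. ENSRNOG00000000479 was 3.85 in a male of litter 1, with the nearest at 4.18. In the saline pump females, a pup of litter 3 had the lowest ENSRNOG00000000774 (10.03, nearest 10.26) and the highest ENSRNOG00000027516 (0.84, nearest -0.53). It is the pup that stood apart on the second principal component.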

How the results depend on the processing

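With each litter left out, members that differed among litters of a condition numbered from 22 to 41 of 120, and all genes from 2192 to 4586, lowest without spontaneous labor litter 1, while saline pump litter 3 left out gave 3078. Genes that differed by sex numbered 5 to 14 with a litter left out, and 15 with no filter beyond 1 count. For condition, the count over all genes was 4 by edgeR and 7 by limma with surrogate variables over 24 pups, and 0 in the other alternatives. No alternative called a member for condition, sex or the interaction. With starts under 6000000 there were 45 members. Of the 14 members followed for condition, 2 changed direction, both with male pups alone, Ier3 to 0.11 and B3galt4 to 0.01, and the cause was not tested. Both were followed because they have a symbol, which came from tables ordered by the difference between conditions in female pups. The other 250 of 252 values kept their direction and stayed uncalled. The litter number as a replicate block gave 0 genes and 0 members. Litters of the same number did not deviate together (r = -0.149, 0.119 and -0.143 across genes). With deviations taken from means of only 3 litters, this cannot settle whether the numbers pair them. The median interval of 0.219 (log2) is not adjusted for the number of genes. With 3 litters per condition, differences of that size, and some larger ones, could mostly not be detected after adjustment. Members near 1 CPM rest on few counts.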
